A study of Mus musculus with 12 samples.

Results

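The genes described here encode the phagocyte NADPH oxidase and a related enzyme: Cybb, Cyba, Ncf1, Ncf4 and Rac2, which build the phagocyte complex, and Nox4, a homologue of Cybb. They were chosen by name, as all probes that the array files give to these 6 symbols. They are 6 of the 34953 named genes with a usable probe, and 9 probes measured them: 3 for Nox4, 2 for Cyba and 1 for each of the others. In every group pair compared, each gene's brightest probe was called well above background by the scanner software on all arrays of one group or the other, so each gene was tested throughout.

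The study hybridised 12 RNA samples, 3 per group in 4 groups, each to its own one-colour Agilent array. The op/op renal group came from mice homozygous for the op mutation of Csf1, which encodes the growth factor M-CSF. The WT renal group came from wild-type mice, and both received glyoxylate (GOX) at 80 mg/kg for 6 days before CD11b+/CD11c+ cells were sorted magnetically from the kidney. M1 bone marrow derived macrophages (M1 BMDM) were stimulated with LPS and GM-CSF, and M2 BMDM with IL-4 and M-CSF. All 12 arrays carry the strain label B6C3Fe a/a-Csf1op/J, and the labels give neither the genotype of the marrow donors nor the age of any mouse. Since both renal groups received glyoxylate, the effect of the treatment itself was not measured. The labels do not say whether samples of a group came from separate animals, so the p-values reflect sample-to-sample spread, which may be technical.

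Cybb (gp91phox) and Cyba (p22phox) form the membrane-bound flavocytochrome of the oxidase, which passes electrons from NADPH to oxygen and makes superoxide. In resting phagocytes the organizer Ncf1 (p47phox) and its partner Ncf4 (p40phox) lie in the cytosol. On activation they move to the membrane, where the small GTPase Rac2 completes the complex. Nox4 also pairs with Cyba but needs no cytosolic subunit, releases mainly hydrogen peroxide, and is known for its expression in kidney tubule cells.

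The promoters of Cybb and Ncf1 are shown because both genes had higher levels in M1 than in M2 BMDM, and because both windows hold a match to an interferon regulatory factor (IRF) element. Each window runs from 250 bases before to 50 bases after the RefSeq start, build GRCm38.p6, on the gene's strand. Capitals mark matches to 3 motifs searched on both strands: GAAANNGAAA for the IRF element, GAGGAA for the core bound by PU.1, and GGGNNTTCC for NF-kB.
Cybb (chrX:9469275-9469574, minus strand): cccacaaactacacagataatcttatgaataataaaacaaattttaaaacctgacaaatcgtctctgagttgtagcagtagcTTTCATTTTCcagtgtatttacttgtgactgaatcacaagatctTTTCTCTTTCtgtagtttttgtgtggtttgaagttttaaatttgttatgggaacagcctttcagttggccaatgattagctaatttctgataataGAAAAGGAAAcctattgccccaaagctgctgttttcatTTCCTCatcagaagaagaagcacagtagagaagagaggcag
Ncf1 (chr5:134229576-134229875, minus strand): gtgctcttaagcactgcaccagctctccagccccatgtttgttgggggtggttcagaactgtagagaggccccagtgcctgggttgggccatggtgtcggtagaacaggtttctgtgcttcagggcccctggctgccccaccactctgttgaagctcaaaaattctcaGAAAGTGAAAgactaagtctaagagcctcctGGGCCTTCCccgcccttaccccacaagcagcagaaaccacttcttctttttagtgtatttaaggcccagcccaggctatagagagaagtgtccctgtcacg

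The Cybb window holds 3 IRF matches, beginning at bases 83, 127 and 222, and 1 match to the PU.1 core at base 260. The Ncf1 window holds 1 IRF match at base 169 and 1 NF-kB match at base 200. Among 32851 mouse promoter windows of the same length, 3.44% hold the IRF letters, 28.3% the PU.1 core and 5.82% the NF-kB letters. The Cybb and Ncf1 windows were shown partly for their IRF match, so the IRF share is no test of it. Promoter windows were available for 4 of the 6 genes. Ncf4 and Rac2 had none, so Rac2, which was also higher in M1 than in M2 BMDM, was not searched. None of the 3 motifs occurs in the windows of Cyba and Nox4. These are letter matches only, and no binding was measured here.

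All 5 genes of the phagocyte complex had lower levels in op/op renal cells than in WT renal cells, by 1.62-fold for Ncf4 to 3.60-fold for Cybb, while Nox4 did not pass the test. Thus 5 of the 6 genes fell and 0 rose, with limma and a Benjamini-Hochberg adjusted p under 0.05 as the threshold. Of the 27157 genes tested in this comparison, 28.5% fell and 30.9% rose, 59.4% in either direction. The median log2 difference was -1.17 over the 6 oxidase genes and 0.16 over all genes tested. So many genes differed between the renal groups that a lower call is a common outcome here.

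Between the cultures the genes did not move as 1 group. Cybb, Rac2 and Ncf1 were higher in M1 than in M2 BMDM, by 7.40-fold, 3.87-fold and 3.52-fold, whereas Cyba, Ncf4 and Nox4 did not pass the test. That is 3 of 6 genes higher and 0 lower, where 8.85% of 26270 genes tested were higher and 8.93% lower, 17.8% in either direction. The median difference was 1.24 over the 6 oxidase genes and 7.23e-05 over all genes.

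The renal cells, taken as the mean of the op/op and WT groups, had lower levels than the BMDM for all 5 genes of the phagocyte complex and a higher level for Nox4. All 6 genes passed the test, 5 lower and 1 higher. Among 28377 genes, 34.7% were lower and 47.3% higher, 82.1% in either direction. The medians were -1.62 for the 6 genes and 0.32 for all genes. Renal and BMDM arrays lay on different slides, so tissue and slide cannot be told apart in this comparison.

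**Figure D1:**
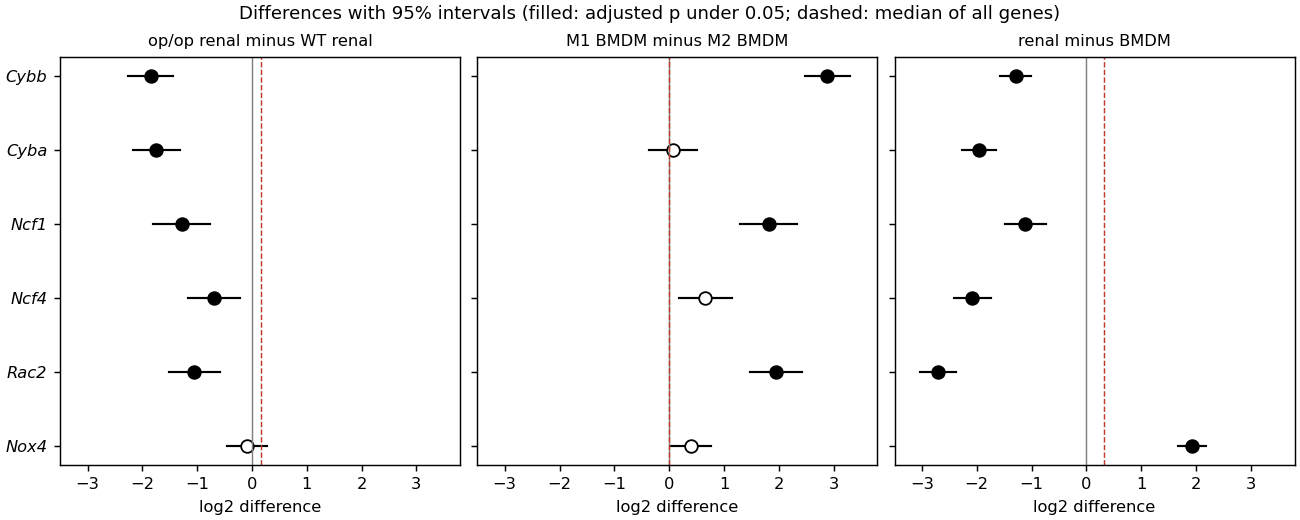
Log2 differences of the 6 oxidase genes in op/op minus WT renal cells, M1 minus M2 BMDM, and renal cells minus BMDM. Points are limma estimates with 95% intervals (not adjusted), filled where the adjusted p was under 0.05, and the dashed line is the median of all genes tested. Cybb has the lowest value in the first panel (-1.85) and the highest in the second (2.89), and in the third panel Nox4 alone lies above 0.

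Each renal group was also set against each culture, with the same 12 arrays in the fit, so these comparisons share samples with each other. In op/op renal cells all 5 genes of the phagocyte complex were lower, and Nox4 was higher, than in M1 BMDM and than in M2 BMDM. Of all genes tested, 35.5% were lower and 46.1% higher in op/op renal cells than in M1 BMDM (81.6% in either direction), and 36.4% were lower and 47% higher than in M2 BMDM (83.4%). WT renal cells had the same 5 genes lower and Nox4 higher than M1 BMDM, where 25.5% of genes were lower and 33.8% higher (59.3%). Against M2 BMDM, WT renal cells had 3 of the 6 lower (Cyba, Ncf4 and Rac2) and 2 higher (Cybb and Nox4), with 28% of genes lower and 36.6% higher (64.5%). Over the 6 genes the median was -2.81 for op/op renal cells minus M1 BMDM, -1.47 for op/op minus M2, -1.59 for WT minus M1 and -0.30 for WT minus M2, beside 0.38, 0.37, 0.20 and 0.20 over all genes tested.

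Values for single genes are log2 signals relative to the 75th percentile of the same array, so that 0 is a signal equal to that percentile. Each probe has its own response, so levels were compared between groups and not between genes. In these bulk samples, fewer cells of a type and less RNA per cell cannot be told apart.

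Cybb, the catalytic subunit, was measured by probe A_55_P2082733 (mm9 chrX:9013216-9013275, minus strand). Its levels were 1.79, 1.94 and 1.69 on the op/op renal arrays, against 3.65, 3.96 and 3.36 on the WT renal arrays. The M1 BMDM arrays read 5.70, 5.41 and 5.28, and the M2 BMDM arrays 2.63, 2.47 and 2.64. No 2 groups overlapped: M1 BMDM had the highest levels, followed by WT renal cells, M2 BMDM and op/op renal cells. The op/op renal mean was 1.81 ± 0.13 and the WT renal mean 3.66 ± 0.30 (SD, n = 3 each), a difference of -1.85 with a standard error (SE) of 0.19 and an adjusted p of 0.000261 in limma. M1 BMDM exceeded M2 BMDM by 2.89 (SE 0.19, adjusted p = 7.83e-07). WT renal cells stood 1.08 above M2 BMDM, which is 2.11-fold, and 1.81 below M1 BMDM, while op/op renal cells stood 0.77 below M2 BMDM, so every pair of neighbours in the order differed. Cybb was the 1 gene of the phagocyte complex that was higher in WT renal cells than in M2 BMDM.

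Cyba, the subunit that stabilises both Cybb and Nox4, gave another order. Its brighter probe, A_55_P1979341 (mm9 chr8:124948726-124948785, minus strand), read 3.87, 4.12 and 3.75 on op/op renal arrays, against 5.92, 5.80 and 5.25 on WT renal arrays. The levels were 6.99, 6.70 and 6.63 in M1 BMDM, against 6.74, 6.68 and 6.69 in M2 BMDM. Both cultures overlapped, WT renal cells lay below them and op/op renal cells were lowest. Cyba fell by 1.74 (SE 0.20, 3.35-fold) in op/op renal cells, with an adjusted p of 0.000406. The M1 minus M2 difference was 0.07, with a 95% interval from -0.36 to 0.50 and an adjusted p of 0.879. The second probe, A_51_P131800, whose 60 bases span 269 bases of mm9 chr8:124950893-124951161, was lower in op/op renal cells by 1.46 (2.75-fold) and gave a difference of 0.0033 between M1 and M2 BMDM. For renal cells minus BMDM it gave -3.36, or 10.3-fold.

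Cybb and Cyba were thus lower by like amounts in op/op renal cells but not between the cultures. The within-array difference Cybb minus Cyba was lower in op/op than in WT renal cells by 0.11, with overlapping groups (two-sided exact permutation test, p = 0.5). In M1 BMDM it exceeded that in M2 BMDM by 2.82, with no overlap and an exact p of 0.1, the smallest that 3 arrays against 3 can give. This was 1 of 15 pairs of the 6 genes, and no pair can reach the threshold in this design.

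Ncf1, the organizer that carries the cytosolic subunits to the membrane, followed a course like that of Cybb over a smaller range. Probe A_55_P2071466 (mm9 chr5:134696380-134696439, minus strand) read 0.93, 1.02 and 0.78 on op/op renal arrays, against 2.25, 2.70 and 1.64 on WT renal arrays. Levels were 3.84, 3.45 and 3.42 in M1 BMDM, against 1.79, 1.65 and 1.84 in M2 BMDM. WT renal cells overlapped M2 BMDM, M1 BMDM lay above both and op/op renal cells below both. The op/op minus WT difference was -1.29 (SE 0.24, 2.44-fold, adjusted p = 0.00193). M1 exceeded M2 BMDM by 1.81 (SE 0.24, adjusted p = 0.000251). WT renal cells minus M2 BMDM gave 0.44, with an interval from -0.09 to 0.97 and an adjusted p of 0.129, whereas op/op renal cells were below M2 BMDM by 0.85 and passed the test.

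Ncf4, which binds a membrane phospholipid, had the smallest op/op difference among the 5 genes of the phagocyte complex. Probe A_51_P377452 (mm9 chr15:78092903-78092962, plus strand) read -0.15, -0.16 and -0.15 on op/op renal arrays, against 0.57, 1.02 and 0.02 on WT renal arrays. The 3 op/op arrays were almost equal and all below the WT arrays, which spread over 1 log2 unit. The difference was -0.69 (SE 0.22, 1.62-fold, adjusted p = 0.019). Without WT renal replicate 2, the highest WT array, it was -0.45 with an adjusted p of 0.0678, and with the renal groups fitted alone the adjusted p was 0.0814. In the cultures the levels were 2.77, 2.58 and 2.47 in M1 BMDM, against 1.98, 1.86 and 1.99 in M2 BMDM, without overlap. The M1 minus M2 difference of 0.66 (interval 0.18 to 1.14) missed the threshold with an adjusted p of 0.0593, and it passed under 10 of 29 alternative settings.

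Rac2, the GTPase of blood cells that activates the complex, had the largest renal to BMDM difference of the 6 genes by their brightest probes. Its probe A_51_P121891 (mm9 chr15:78391452-78391511, minus strand) is spotted 10 times on each array. The averaged spots read 0.92, 0.82 and 0.78 in op/op renal cells, against 1.92, 2.33 and 1.43 in WT renal cells. M1 BMDM had 5.27, 5.01 and 4.89, against 3.12, 2.97 and 3.20 in M2 BMDM. The 4 groups did not overlap, and unlike Cybb and Ncf1, Rac2 was lower in WT renal cells than in either culture. Op/op renal cells were lower than WT renal cells by 1.05 (SE 0.22, 2.07-fold, adjusted p = 0.0028), and M1 exceeded M2 BMDM by 1.95 (SE 0.22, 3.87-fold). Across tissues the renal cells were 2.71 lower than the BMDM, or 6.54-fold.

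**Figure D2:**
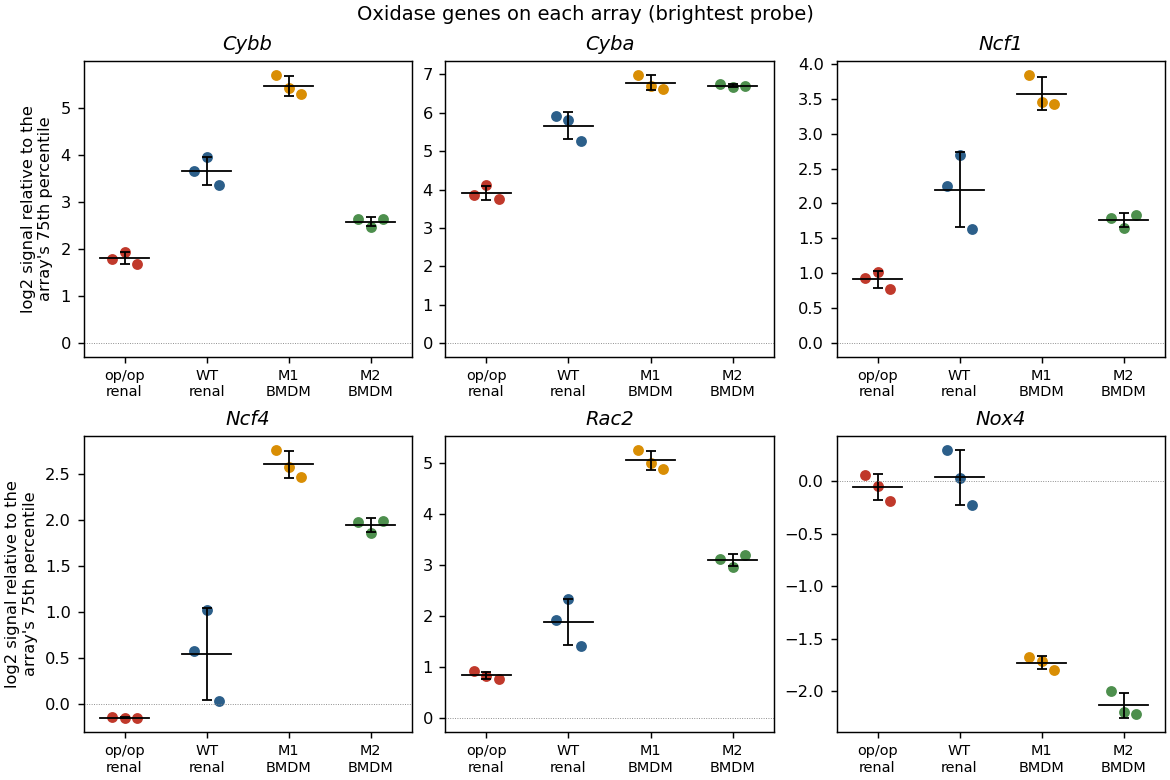
Log2 signal of the 6 oxidase genes on each of the 12 arrays, relative to the array's 75th percentile, for op/op renal cells, WT renal cells, M1 BMDM and M2 BMDM. Points are arrays, horizontal lines are means and bars are SDs (n = 3 each), and each panel has its own axis range. The op/op points lie below all others for the 5 genes of the phagocyte complex, whereas for Nox4 both renal groups lie above both cultures.

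Nox4 ran the other way. Its brightest probe, A_55_P1972039 (mm9 chr7:94547113-94547172, plus strand), read 0.06, -0.05 and -0.18 on op/op renal arrays, against 0.30, 0.03 and -0.22 on WT renal arrays. M1 BMDM had -1.67, -1.71 and -1.80, against -1.99, -2.19 and -2.22 in M2 BMDM. The renal groups overlapped each other and lay above both cultures. Renal cells exceeded BMDM by 1.92 (SE 0.12, 3.79-fold, adjusted p = 7.54e-08). The op/op minus WT difference was -0.09, with an interval from -0.46 to 0.27 and an adjusted p of 0.637. The M1 minus M2 difference was 0.41, with an interval from 0.04 to 0.77 and an adjusted p of 0.126.

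The other Nox4 probes differed from the brightest one in op/op against WT. Probe A_51_P369311 is shown because it crosses at least 1 splice junction: its 60 bases lie within 15021 bases of mm9 chr7:94472458-94487478. Per the array files its sequence is as follows.
Nox4 A_51_P369311: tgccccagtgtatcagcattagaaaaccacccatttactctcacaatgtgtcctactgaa

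On this probe op/op renal arrays read -1.53, -1.05 and -2.34, against -0.57, -0.91 and -0.93 on WT renal arrays, without overlap. With every probe tested on its own, the difference was -0.84 (SE 0.32, 1.78-fold, adjusted p = 0.0437). The third probe, A_55_P1972040 (mm9 chr7:94547025-94547084), gave -1.24 with overlapping groups and an adjusted p of 0.0567, and 2 of the 3 op/op arrays were well above background there. With the mean of the 3 probes in place of the brightest, Nox4 was lower in op/op renal cells by 0.72 (adjusted p = 0.0481). The 3 probes therefore do not settle whether Nox4 differed between the renal groups.

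Against M1 BMDM, A_51_P369311 was higher by 2.43 in op/op and by 3.27 in WT renal cells. A_55_P1972040 was higher by 1.43 in WT renal cells (adjusted p = 0.0312), but in op/op renal cells, where 2 of 3 arrays were well above background, its difference from M1 BMDM was 0.20 (adjusted p = 0.734) and the groups overlapped. On both probes no M2 BMDM array was well above background, so comparisons with M2 BMDM are bounds. By A_51_P369311 the level was at least 4.78-fold higher in op/op renal cells and at least 8.52-fold higher in WT renal cells than in M2 BMDM. By A_55_P1972040 it was at least 2.69-fold higher in WT renal cells. For a bound, each M2 array was given the dimmest signal that the software still called above background there, where the probe's own signal was lower.

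**Figure D3:**
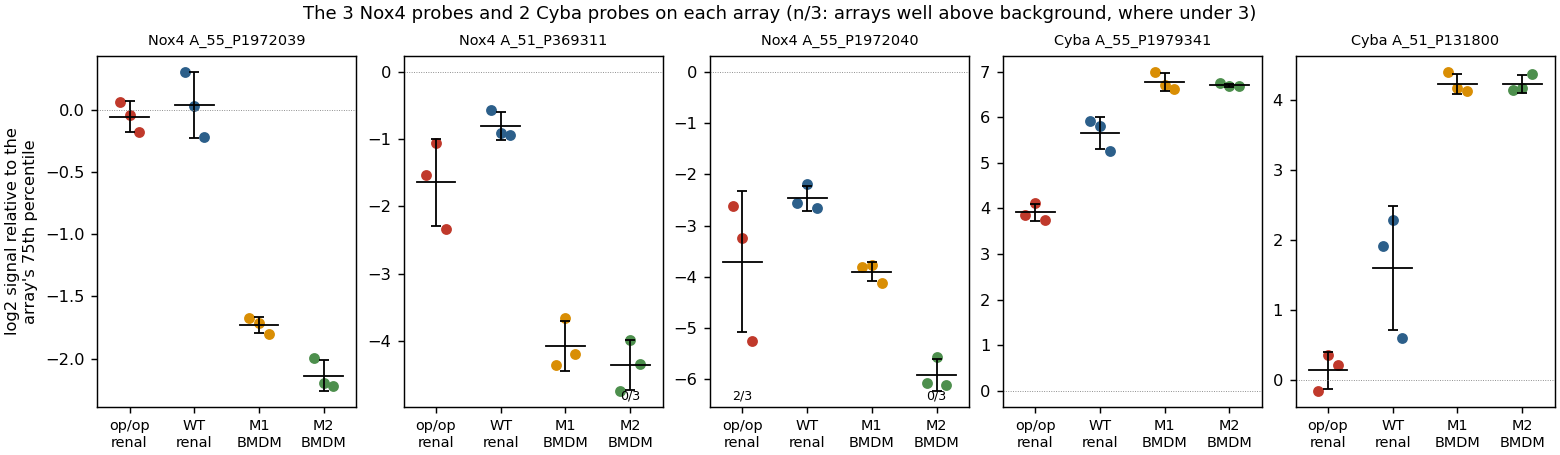
Log2 signal of each of the 3 Nox4 probes and 2 Cyba probes on the 12 arrays, relative to the array's 75th percentile. Points are arrays, lines are means, bars are SDs (n = 3 each), and n/3 marks groups in which fewer than 3 arrays were well above background. Both Cyba probes place op/op below WT renal cells, while op/op renal arrays overlap M1 BMDM arrays on Nox4 probe A_55_P1972040 and lie above them on the other 2 Nox4 probes.

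The 5 genes of the phagocyte complex shared part of the spread among WT renal arrays. WT renal replicate 4 had the lowest level of its group for all 5 genes of the phagocyte complex, and also on each Nox4 probe. Gapdh was lowest there too, at 5.18 against 5.90 on replicate 1 and 5.94 on replicate 2. It was picked for its likeness to Ncf4 over these same arrays, so it is no separate support. Cat went the other way, at 6.87 on replicate 4 against 6.57 on replicate 1 and 6.68 on replicate 2. The share of all genes lowest on that array was not computed. Replicate 4 also had the lowest summed macrophage marker signal of the group. That sum was 101 on replicate 4, 132 on replicate 1 and 210 on replicate 2, in multiples of the array's 75th percentile. WT replicate 1 was alone on a slide, and with slide as a term, which uses the other 5 renal arrays, the op/op minus WT differences were -1.85 for Cybb, -1.61 for Cyba, -1.26 for Ncf1, -0.68 for Ncf4 and -1.04 for Rac2. All 5 passed the test there. WT and M1 arrays occupied one row of the slides and op/op and M2 arrays the other, so row and group cannot be told apart.

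Markers of macrophages moved with the phagocyte genes. Of 10 macrophage markers, op/op renal cells had 8 lower than WT renal cells and 0 higher (median -1.52), led by the fractalkine receptor Cx3cr1 (-2.61) and the complement gene C1qc (-2.19). Of all genes tested there, 28.5% were lower and 30.9% higher. The macrophage markers summed to 60.2 to 65.4 in op/op and 101 to 210 in WT renal cells. In M1 BMDM the sum was 221 to 251, and in M2 BMDM 217 to 224. Between the cultures 2 of 9 tested macrophage markers were higher in M1 BMDM and 1 lower, beside 8.85% and 8.93% of all genes. In renal cells against BMDM 8 of 10 were lower and 2 higher, with Cx3cr1 at 7.60, beside 34.7% and 47.3% of all genes. Csf1r did not pass in op/op against WT renal cells (0.08). All 10 markers were well above background on at least 1 array of both renal groups. The part of the lower macrophage markers in the oxidase differences was not tested.

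Markers of other blood cells were read the same way. Among 11 neutrophil markers tested, 4 were higher and 1 lower in op/op renal cells, beside 30.9% and 28.5% of all genes. The granule genes Ngp (1.74) and Mpo (1.61) were among the higher ones, and Mmp8 (-0.73) was the lower one. The other 6 did not pass, among them Ly6g (-0.80), and the median was 0.27. The summed signals of the neutrophil markers were 313 to 352 in op/op against 255 to 310 in WT renal cells. In the cultures they were 265 to 323 in M1 and 260 to 293 in M2 BMDM. Csf3r, the receptor gene for granulocyte colony-stimulating factor, made up 83.9% to 89.8% of the sum in op/op and 76.1% to 90.5% in WT renal cells, and its difference of 0.25 did not pass (adjusted p = 0.171). Without Csf3r the sums overlapped, at 36.0 to 51.9 in op/op and 27.0 to 74.0 in WT renal cells. The neutrophil list shares S100a8, S100a9 and Mpo with the pathway lists. Of 4 monocyte markers, 1 was higher (Vcan, 0.70) and 1 lower (Ccr2, -1.53). Among 5 B cell markers 4 were higher and 1 lower, led by Ms4a1 (1.76). Of 9 T and NK cell markers listed, the 4 tested were all higher, among them Cd3e (1.40). B cell sums were 3.46 to 5.10 in op/op and 1.86 to 2.35 in WT renal cells, 0.71 to 0.77 in M1 and 0.60 to 0.65 in M2 BMDM. T and NK cell sums were 72.0 to 99.6 in op/op and 24.9 to 52.5 in WT renal cells. In the cultures they were 16.0 to 18.7 in M1 and 16.3 to 19.6 in M2 BMDM. Cd4 made up 49.5% to 51.6% of that sum in op/op and 35.8% to 54.9% in WT renal cells. Of 6 dendritic cell markers 2 were lower and 0 higher, beside 28.5% and 30.9% of all genes. The lower ones were Itgax (-1.61), which encodes CD11c, an antigen of the sort, and Cd209a (-1.17). The other 4 did not pass and had differences from 0.21 to 0.68, and the median of the list was 0.26. The part of these lists in the oxidase differences was not tested.

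Kidney cell markers were also present in the sorted cells. Proximal tubule markers were lower in op/op renal cells for 11 of 13 tested and higher for 0, with Slc27a2 at -2.80. Of all genes tested there, 28.5% were lower and 30.9% higher. The 11 include Slc13a1 and Slc22a8, which no op/op array measured above background. Slc13a1 was at least 6.05-fold lower, no fold can be given for Slc22a8, and with the 2 genes at their bounds the median of the 13 was -1.51. Nox4 differed by -0.09 in op/op against WT renal cells by its brightest probe, and by -0.84 and -1.24 by its other probes. The summed signal of the proximal tubule markers was 26.6 to 75.3 in op/op and 123 to 254 in WT renal cells. In the cultures it was 1.79 to 1.88 in M1 and 2.81 to 3.21 in M2 BMDM. All 13 were higher in renal cells than in BMDM, as Nox4 was. The same held for all 8 distal nephron, 8 endothelial, 5 B cell and 4 tested T and NK cell markers. Of the 8 fibroblast and mural markers 1 was higher and 7 were lower. Among all genes tested in that comparison, 47.3% were higher. Slc6a19 was not well above background on any renal array. Of the distal nephron markers 4 of 8 were higher and 1 lower in op/op, of the endothelial markers 1 of 8 was higher, and of the fibroblast and mural markers 3 of 7 were lower. The part of tubule cells in the Nox4 levels was not tested.

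**Figure D4:**
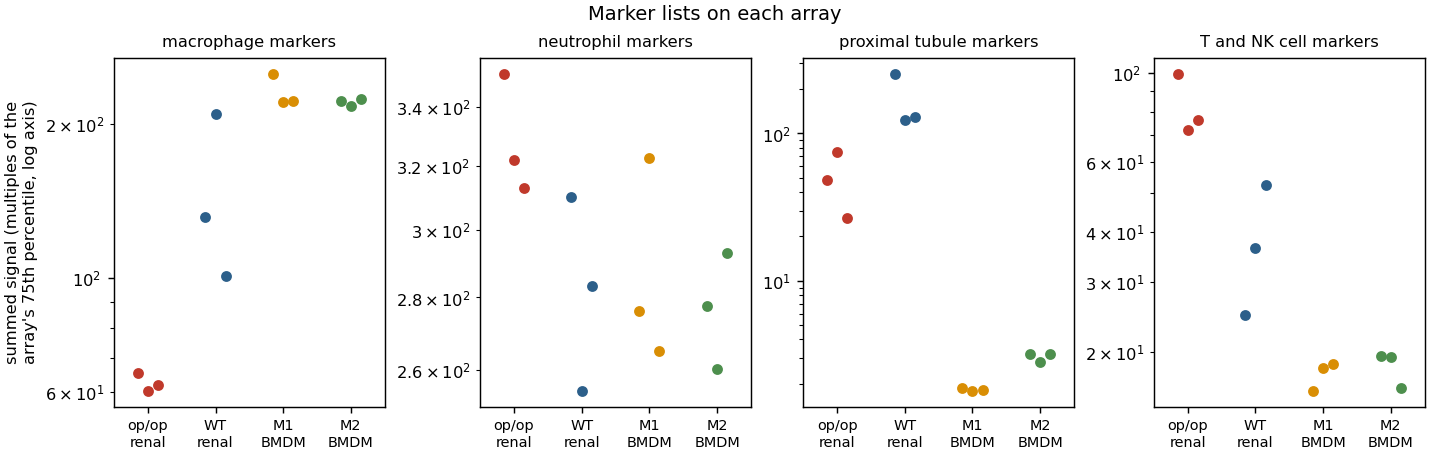
Summed signal of macrophage, neutrophil, proximal tubule, and T and NK cell markers on each array, in multiples of the array's 75th percentile on log axes, for op/op renal cells, WT renal cells, M1 BMDM and M2 BMDM. Points are arrays. Macrophage sums are lowest in op/op renal cells (60.2 to 65.4), and proximal tubule sums are below 4 in both cultures.

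Of 16 tested genes for Rac regulation and oxidase activation, 12 were lower and 0 higher in op/op renal cells (median -0.90). The 12 include Arhgdib, which keeps Rac inactive in the cytosol (-0.90), and Vav3, which no op/op array measured above background. With Vav3 at its bound the median was -0.84. Also lower were Vav1, an exchange factor for Rac (-1.25), and the protein kinases C Prkcd (-1.21) and Prkcb (-1.26), which phosphorylate p47phox. Between the cultures 6 of the 16 were higher in M1 BMDM and 1 lower (median 0.05). The Rac exchange factor Prex1 (1.78), Vav1 (1.64) and Prkcb (1.35) led the higher ones, and Vav3 was lower (-1.28). In renal cells against BMDM, 14 were lower and 1 higher (median -1.11), with Arhgdib at -1.91, the lipid kinase Pik3cg at -2.13 and Akt1 at -1.46. Of all genes tested, 28.5% were lower and 30.9% higher in op/op renal cells, and 8.93% and 8.85% in M1 BMDM. In renal cells against BMDM the shares were 34.7% and 47.3%.

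Of 10 tested genes that compensate the oxidase's charge or handle its products, 6 had lower and 2 higher levels in op/op renal cells against WT renal cells (median -0.83). The extracellular superoxide dismutase Sod3 fell by 1.82, the mitochondrial one, Sod2, by 1.11, and the chloride transporter Clcn3 by 1.12. Mpo, which turns hydrogen peroxide into hypochlorous acid, and catalase (Cat) were the higher ones, at 1.61 and 0.52. M1 BMDM had 14.6-fold more Sod2 than M2 BMDM (3.87), but less Clcn3 (-1.77) and less of the proton channel Hvcn1 (-0.81), and 2 genes of the list were higher and 3 lower there (median -0.22). Renal cells had 6 of the 10 lower than BMDM and 2 higher (median -1.07), with Hvcn1 at -2.42, Prdx1 at -2.95 and Sod2 at -2.68. Of all genes tested, 28.5% were lower and 30.9% higher in op/op renal cells, and 8.93% and 8.85% in M1 BMDM. In renal cells against BMDM the shares were 34.7% and 47.3%. There the list was called about as often as all genes, of which 82.1% passed in either direction.

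Among 6 tested genes of other oxidases and organizers, Cybc1, the chaperone needed for stable Cybb and Cyba proteins, followed Cybb. Its level was lower in op/op renal cells than in WT renal cells (-1.61), higher in M1 than in M2 BMDM (1.15) and lower in renal cells than in BMDM (-1.30). In op/op against WT renal cells 1 of the 6, Cybc1, was lower and 3 were higher (median 0.43). The higher ones were Duoxa1 (0.99), Duox1 (1.42) and Noxa1 (0.53), genes of other oxidases. The Duoxa1 value rests on its brightest probe, since its other probes were well above background on no array. Between the cultures 1 was higher and 0 lower (median -0.19), and in renal cells against BMDM 2 were higher and 2 lower (median 0.13). Of all genes tested, 28.5% were lower and 30.9% higher in op/op renal cells, and 8.93% and 8.85% in M1 BMDM. In renal cells against BMDM the shares were 34.7% and 47.3%.

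Of 11 transcription factors known to act on phagocyte oxidase genes, 6 were lower and 0 higher in op/op renal cells (median -0.62). Cebpb (-1.97), the NF-kB subunit Nfkb1 (-1.32) and Irf1 (-1.15) had the smallest p-values, and Spi1, which encodes PU.1, was at -1.43. In M1 against M2 BMDM 4 were higher and 1 lower (median 0.39): Nfkb1 (1.11), Irf1 (0.88), Rela (0.73) and Cebpb (0.53) were higher and Cebpa was lower (-2.22). Spi1 gave 0.56 there with an adjusted p of 0.208. In renal cells against BMDM 7 were lower and 2 higher (median -0.47), with Spi1 at -2.26, Nfkb1 at -1.50 and the homeobox gene Hoxa9 at 2.14. Of all genes tested, 28.5% were lower and 30.9% higher in op/op renal cells, and 8.93% and 8.85% in M1 BMDM. In renal cells against BMDM the shares were 34.7% and 47.3%. Counting either direction, the factors were called about as often as all genes in op/op against WT (59.4%) and in renal cells against BMDM (82.1%).

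**Figure D5:**
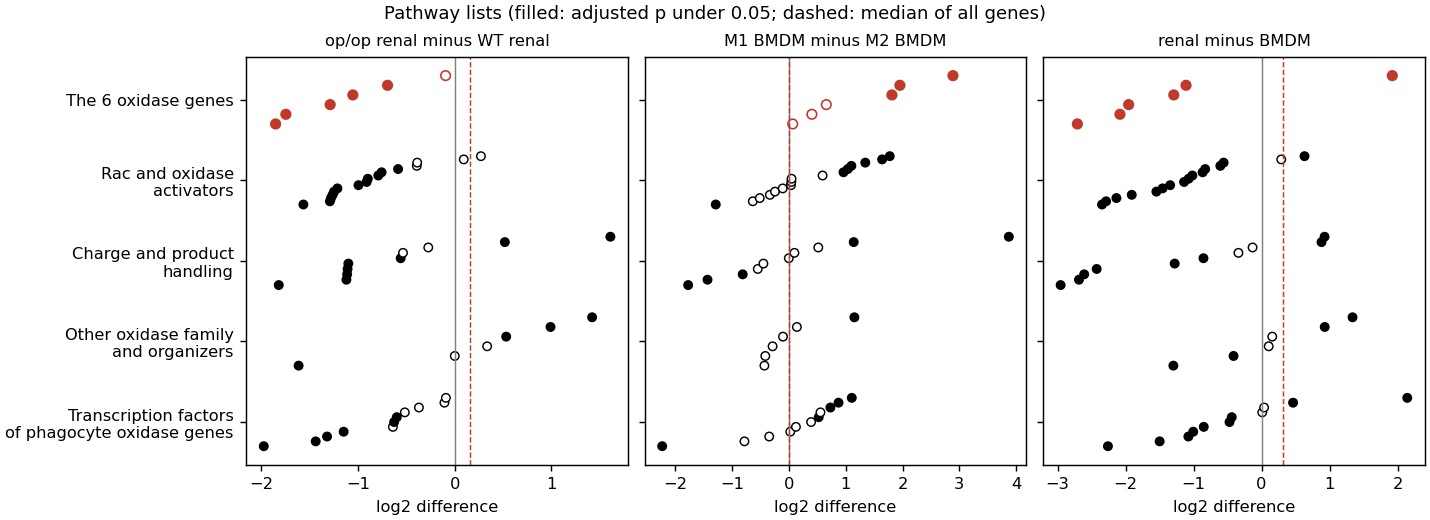
Log2 differences of the 6 oxidase genes (red) and of the 4 pathway lists (black) in op/op minus WT renal cells, M1 minus M2 BMDM, and renal cells minus BMDM. Each point is a gene, filled where the adjusted p was under 0.05, and the dashed line is the median of all genes tested. In the first panel 12 of the 16 genes of Rac regulation and oxidase activation are filled and below 0, beside 28.5% of all genes. The highest point of the second panel is Sod2 at 3.87.

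Likeness of course over the 12 arrays was measured as the root mean square (RMS) difference between log2 levels, each centred on its own mean, among 16548 genes. Within the 6 genes Cybb and Ncf1 were nearest (0.45), followed by Cyba and Ncf4 (0.46) and Ncf4 and Rac2 (0.57). Many other genes were nearer: Ncf1 had rank 32 from Cybb, and Cybb rank 153 from Ncf1. Ncf4 had rank 1384 from Cyba, and Cyba rank 1311 from Ncf4. Rac2 had rank 2485 from Ncf4, and Ncf4 rank 224 from Rac2. Nox4 was 1.66 to 2.41 from the others. The genes nearest to each were Gmfg (0.22), Batf (0.25) and Zufsp (0.29) for Cybb, and Cd52 (0.17), Hcls1 (0.18) and Vav1 (0.19) for Ncf1. For Cyba they were Cmtm3, Senp2 and Atp9b (0.13 to 0.15), for Ncf4 Arhgdib, Eif6 and Gapdh (0.12 to 0.15), and for Rac2 Acp2, Ddb2 and Sphk1 (0.17 to 0.21). Nox4 was nearest to Ppara, Col4a4 and Gsta4 (0.17 to 0.21). No op/op array measured Atp9b above background, and no op/op or BMDM array Gsta4, so their levels there are at background. The measure grows with a gene's own range, and all values share the same 12 arrays and their scaling.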

How the data were processed

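RNA was amplified with the Ovation PicoSL WTA System V2 and labelled with Cy3, per the labels' protocols. Agilent Feature Extraction 10.7.3.1, per the submitters' processing notes, gave the deposited spot intensity (processed signal, linear). The deposited value table holds log2 values; set against the scanner files it is their log2 processed signal scaled to each array's 75th percentile (r at least 0.999993 per array, column medians -2.467 to -1.877), with no centring of genes and signs as in the scanner files.

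From the scanner files, control spots and 30 probes with outlier flags were left out of 55681, spots of a probe were averaged, and log2 processed signals were set relative to each array's 75th percentile. No spot was saturated. Probes were named by accession through RefSeq (27494) or kept the file's name (28157), and the brightest probe stood for a gene. A gene was tested if one of the groups compared had it well above background on all 3 arrays. Probes called above background made up 63.1 to 68.8% on op/op renal, 76.1 to 79.3% on WT renal, 72.6 to 75.1% on M1 and 64.4 to 65.1% on M2 arrays. Precision is limited by the number of arrays, and the median residual SD was 0.37 for renal and 0.16 for BMDM arrays. The model gave each gene 1 spread for all groups, so Cybb had an SE of 0.19 between renal groups and between cultures. With the renal groups fitted alone in limma, its SE was 0.26 and its adjusted p 0.00791. Groups follow the sample titles.

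Differences were fitted with limma 3.58.1 (R 4.3.3) in 1 model of the 4 groups over the 12 arrays, with no covariate, and Benjamini-Hochberg adjusted p under 0.05 over all genes tested. Pairs of genes were tested by exact permutation. The procedure was tested on simulated data. Named genes are the 6 oxidase genes, up to 3 genes per pathway list and comparison and 2 per marker list with the smallest p, and the 3 nearest in course. Genes of a pathway or marker list named beyond these were chosen after their values were seen. Some genes of the lists are not reported here. The oxidase genes and all lists were chosen with earlier results of these data known. Same-numbered replicates did not deviate together (correlations -0.163 to 0.0703 in op/op and WT, -0.0698 to 0.14 in M1 and M2), so numbers were not taken as pairs. There were 17 alternative settings and 12 fits without 1 array each.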

Additional observations from a re-analysis of the deposited data

How the results depend on the processing

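Cybb, Cyba, Ncf1 and Rac2 kept their direction and stayed past the threshold under all 29 settings in op/op against WT renal cells, as did Cybb, Ncf1 and Rac2 in M1 against M2 BMDM and all 6 genes under 27 settings in renal cells against BMDM. For Cybb the differences ranged from -2.04 to -1.66, 2.77 to 2.98 and -1.37 to -0.98 in these comparisons. Ncf4 ranged from -0.98 to -0.45 in op/op against WT, losing its call in the groups alone, at 2-fold and without WT renal replicate 2. Signs turned only for differences that had not passed: Nox4 in op/op against WT was 0.039 with slide as a term and without WT renal replicate 1 (-0.22 to 0.039 with 1 array left out), and Cyba in M1 against M2 was -0.14 with quantile normalization and -0.040 without M1 replicate 2 (-0.040 to 0.14 with 1 array left out). Nox4 passed in M1 against M2 with the mean of its probes (0.90), the groups alone and array weights (0.41 each). With the groups alone, op/op against WT gave 5162 genes higher and 5010 lower, and M1 against M2 gave 4602 and 5141 with 5 oxidase genes higher; array weights gave 4975 and 5408 there, also with 5. At 2-fold the counts were 3542 and 3566 in op/op against WT, 1196 lower in M1 against M2, and 8954 and 6393 in renal cells against BMDM. In M1 against M2 a floor at the 10th percentile gave 4306 lower and every probe 3496 higher. With every probe, 3 probes of the 6 genes, all of Nox4, were higher in renal cells.
Leaving out 1 array at a time gave 5510 to 9154 genes higher in op/op renal cells, the lowest without op/op replicate 1, and 1543 to 2965 lower in M1 than in M2 BMDM, the 3 lowest (1543, 1547 and 1549) without M1 replicates 3 and 4 and M2 replicate 2. The replicate block changed no call of the 6 genes (Cybb -1.85, adjusted p 0.0021, in op/op against WT) and gave 8022 genes higher and 7343 lower there. The groups alone could not be fitted for renal cells against BMDM, which holds all 4 groups, nor slide as a term, since tissue and slide coincide. Signal over background limits the 2 dimmer Nox4 probes in M2 BMDM. The causes of these changes were not tested.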

Other observations

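Among the other catalytic subunits, Nox3 was called above background on 0 of 12 arrays, and Nox1 by its brightest probe on none of the op/op renal and M2 BMDM arrays.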
